A study of Homo sapiens with 30 samples.

Results

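The transcripts of 34 genes of the autophagy machinery were followed in 3 established human cancer cell lines kept at an acidic or a physiological medium pH. The 34 genes were taken by name from a table of 38122 genes, and all 34 were found. They comprised 5 genes of the initiation kinase complex, 5 of the autophagy PI3-kinase complex, 6 that supply membrane to the growing autophagosome, 8 of the conjugation system, 5 of the LC3 and GABARAP family and 5 soluble cargo receptors.

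RNA sequencing had been run on FaDu, a line from a squamous carcinoma of the hypopharynx, on HCT116, a colon carcinoma line, and on SiHa, a cervical carcinoma line. Each line was grown in DMEM set to pH 6.5 or pH 7.4 (5 libraries per group, 6 groups), and the pH 6.5 cells had been held at that pH for at least 1 month. Both pHs shared the other conditions: 10 mM glucose, 2 mM glutamine, 10% serum, penicillin and streptomycin, 25 mM each of the buffers HEPES and PIPES, 37 °C and 5% CO2. The question was which of these transcripts differed between long-term acidic and physiological culture, line by line. The labels do not say whether libraries came from separate cultures, so p-values measure the spread between libraries, which may be technical. A level is a count normalised by the authors for library size, and a change is a difference in log2(normalised count + 1), pH 6.5 minus pH 7.4. Only transcripts were measured, not the flux of cargo through autophagosomes.

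In autophagy a double membrane closes around cytoplasmic material and carries it to the lysosome. The ULK1 kinase complex starts the process under the control of mTORC1 and AMPK, the PI3-kinase complex marks the site with a lipid, ATG9A vesicles and the ATG2 lipid transfer proteins feed the membrane, and a ubiquitin-like cascade attaches LC3 and GABARAP proteins to it. Cargo receptors such as p62 (SQSTM1) hold ubiquitinated cargo to LC3 and are themselves degraded with it, so transcript and protein can differ.

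Depth ran from 21.02 to 55.7 M reads per library, and 3 reads in a library corresponded to 1.90 to 5.01 normalised counts. In the 21 libraries used for the comparisons, genes restricted to another of the lines stood at a median of at most 0.0656% of their level in their own line. These genes were chosen as near absent from the other lines in the FaDu pH 6.5, SiHa pH 6.5 and HCT116 pH 7.4 libraries. Low values in those groups were therefore fixed by the choice. Among the compared libraries of the remaining groups the highest value was 0.0533% (SiHa genes in HCT116 pH 6.5 replicate 1). The other 9 libraries were kept apart. The 4 libraries labelled FaDu pH 7.4 replicates 2 to 5 held HCT116-restricted genes at 28.2% to 77.5% of their HCT116 level, and the 3 labelled HCT116 pH 6.5 replicates 5 to 7 held SiHa-restricted genes at 35.9% to 103% of their SiHa level. The 2 labelled SiHa pH 7.4 replicates 6 and 7 held genes of other lines at no more than 0.0419%, but their summed fibroblast markers reached 8601 to 9835, against 2939 to 4255 in the other SiHa pH 7.4 libraries and 1132 to 3414 at pH 6.5. This left 5 against 1 library in FaDu (pH 6.5 against pH 7.4), 2 against 5 in HCT116 and 5 against 3 in SiHa. The 8 squamous markers summed to 259406 to 408376 in FaDu at pH 6.5 and 457399 at pH 7.4, and to at most 7206 in SiHa and HCT116, and 5 to 6 of the 8 had a mean above 10 in SiHa. The 8 colon markers summed to 859 to 1069 in HCT116 at pH 6.5 and 1329 to 1747 at pH 7.4, with CDX1 at 0 and 3 and 4 of the 8 above a mean of 10. These sums did not overlap between the pHs in either line. How far such differences in cell state bear on the values below was not tested.

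With a threshold of 0.05 on the adjusted p (limma, Benjamini-Hochberg over all genes tested), 11 of the 34 genes changed in SiHa, 6 upward and 5 downward, where 31.2% of all 18555 genes tested passed (15% upward, 16.2% downward). In HCT116 3 of 34 changed, 1 upward and 2 downward, against 20.2% of 18885 genes (9.11% upward, 11.1% downward). In FaDu 5 of 34 changed, 1 upward and 4 downward, against 7.36% of 19170 genes (4.24% upward, 3.12% downward). These shares of members were not tested against those of all genes. In bulk RNA a smaller share of expressing cells and less transcript per cell cannot be told apart. The median change of the 34 was -0.02 in SiHa, 0.03 in HCT116 and -0.18 in FaDu, beside a median of -0.01 over all genes tested in each line. All 34 passed the filter on low values, a mean of 10 or more in the higher group, in each line. In FaDu and HCT116, MAP1LC3A did so only through the acidic group. Its means there were 52.2 and 14.3, against 9.89 and 2.05 at physiological pH. Its change was therefore tested in these lines only because the acidic group was high. MAP1LC3A was the only member called in more than 1 line (FaDu and HCT116, on calls that several alternatives ended), and 16 members changed in none: ULK1, ULK2, ATG101, RB1CC1, PIK3C3, ATG14, UVRAG, ATG2A, VMP1, ATG3, ATG4D, ATG7, ATG10, ATG16L1, GABARAPL1 and GABARAPL2. The plot of changes by line shows most of the 34 close to 0, with SQSTM1 farthest from 0 in SiHa and MAP1LC3A and ATG12 in HCT116.

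**Figure D1:**
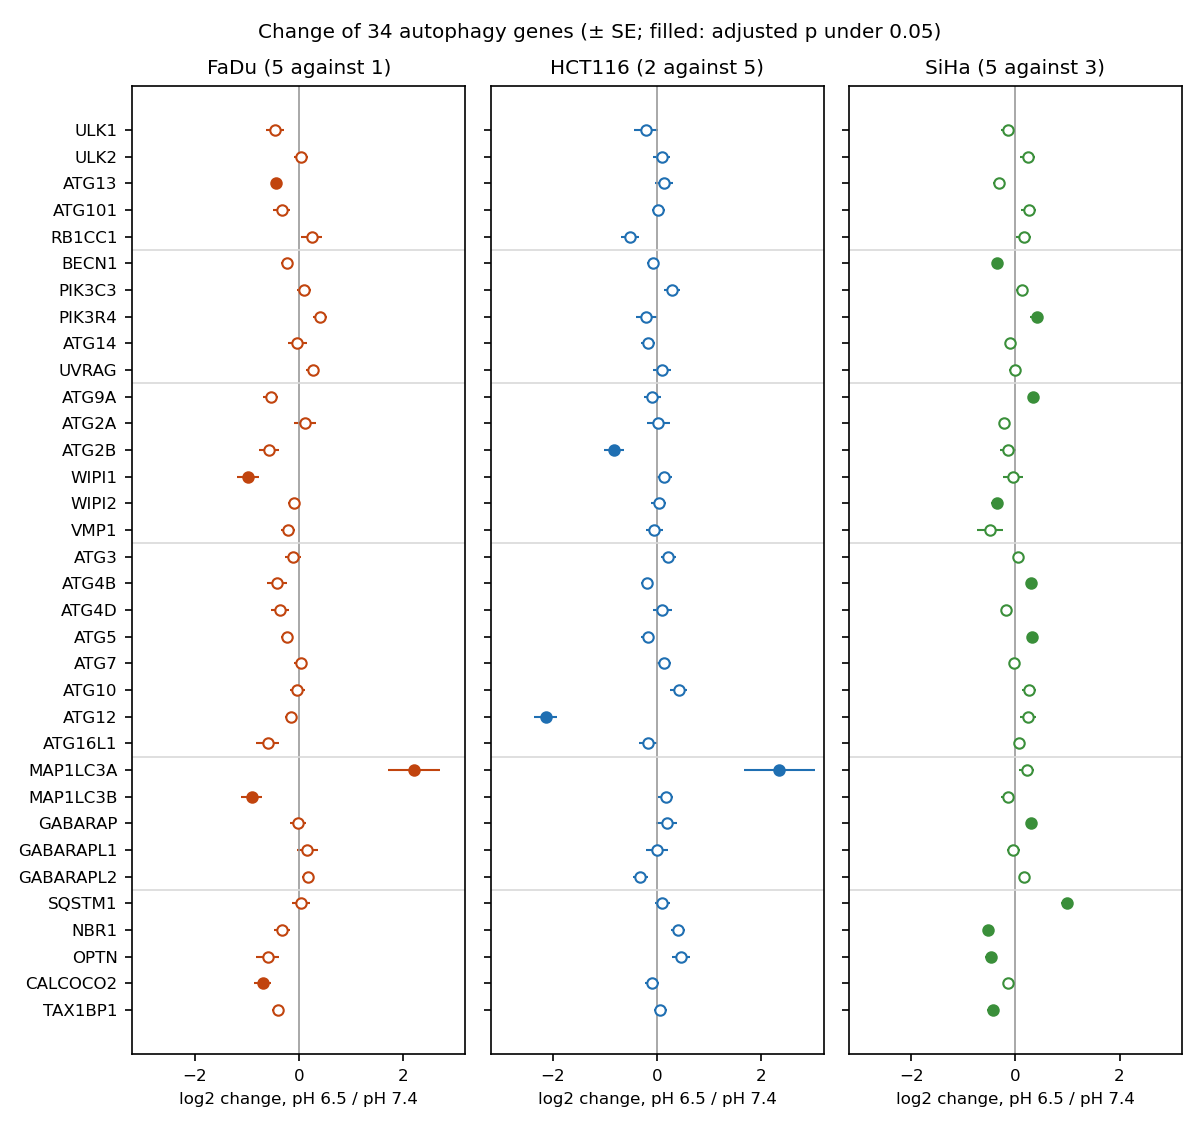
Change of each of the 34 genes in FaDu, HCT116 and SiHa (x axis: log2 change, pH 6.5 over pH 7.4, on the log2(normalised count + 1) scale, with the limma standard error as bars; y axis: genes in order of role; filled circles: adjusted p under 0.05). SQSTM1 at 0.99 is the largest change in SiHa, ATG12 at -2.14 stands far below 0 in HCT116, and MAP1LC3A lies at 2.22 in FaDu and 2.35 in HCT116 and at 0.22 in SiHa.

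Of the 5 cargo receptors 4 changed in SiHa. SQSTM1 rose while NBR1, OPTN and TAX1BP1 fell, and CALCOCO2 did not pass the test. SQSTM1 (ENSG00000161011), which encodes p62, a receptor for ubiquitinated protein aggregates that also binds KEAP1, stood at 18854, 26125, 21204, 21919 and 27499 in the SiHa pH 6.5 libraries and at 11205, 11312 and 12030 at pH 7.4. Every acidic library lay above every pH 7.4 library, and the mean at pH 6.5 was 23120 against 11516. The change was 0.99 ± 0.12 (log2, SE; limma adjusted p = 0.000312).

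NBR1 (ENSG00000188554), a receptor of related domain build that works beside p62, stood at 3284, 3624, 3255, 3009 and 2959 at pH 6.5 and at 4471, 5052 and 4407 at pH 7.4 in SiHa. The groups did not overlap, and the change was -0.53 ± 0.09 (log2, SE; limma adjusted p = 0.00216). OPTN (ENSG00000123240), optineurin, a receptor for damaged mitochondria and bacteria, read 3671, 4216, 3355, 3179 and 3624 at pH 6.5 and 5477, 5067 and 4429 at pH 7.4. All 5 acidic libraries were lower, with a change of -0.47 ± 0.11 (log2, SE; limma adjusted p = 0.00843). TAX1BP1 (ENSG00000106052), a receptor that recruits RB1CC1 to aggregates, read 4253, 4512, 4404, 3756 and 3434 at pH 6.5 and 5194, 5853 and 5417 at pH 7.4. These groups were also apart, by -0.44 ± 0.10 (log2, SE; limma adjusted p = 0.00998). CALCOCO2, or NDP52, a receptor for bacteria and mitochondria, read 1606 to 1996 at pH 6.5 and 1925 to 2111 at pH 7.4, with overlapping groups and an adjusted p of 0.232 (limma).

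The SiHa changes of SQSTM1, NBR1, OPTN and TAX1BP1 passed the threshold in 21 of 21 alternative analyses, including those that left out any 1 library. With the 2 set-apart pH 7.4 libraries put back (SQSTM1 11767 and 8895), the SQSTM1 change was 1.06, and 13 of the 34 genes passed (7 upward, 6 downward), against 40.8% of all genes. The same-numbered libraries gave SQSTM1 differences of 0.75, 1.21 and 0.82. Marker sums were also set side by side in the compared SiHa libraries. The 8 squamous markers summed to 1319 to 4706 at pH 6.5 and 5876 to 7206 at pH 7.4, without overlap. The sums of the 8 fibroblast markers overlapped, at 1132 to 3414 and 2939 to 4255. Of these 8, 5 were above a mean of 10 at pH 6.5 and 7 at pH 7.4. Their part in the SiHa changes was not tested.

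In HCT116 none of the 5 cargo receptors passed the test. SQSTM1 read 11370 and 8556 at pH 6.5 and 8041 to 10075 at pH 7.4, so its groups overlapped (change 0.10 ± 0.14, limma adjusted p = 0.660). NBR1 (4512 and 4974 against 3083 to 4020) and OPTN (2767 and 1927 against 1348 to 1928) had differences of 0.40 and 0.46 with adjusted p = 0.0564 and 0.0846 (limma). In the 3 libraries labelled HCT116 pH 6.5 that carried SiHa reads, SQSTM1 was 20123, 34926 and 30594, within or above the SiHa acidic range and outside the range of all other HCT116 libraries. In FaDu, SQSTM1 read 8956, 11781, 10313, 9578 and 11868 at pH 6.5 and 10148 in the pH 7.4 library, which lay inside the acidic range. CALCOCO2 was the receptor called in FaDu, at 2531, 2029, 2098, 1916 and 2049 against 3421, a change of -0.69 ± 0.16 (log2, SE). NBR1, OPTN and TAX1BP1 were also lower in FaDu, with changes of -0.33, -0.60 and -0.40 and no call, and SQSTM1 was at 0.04.

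**Figure D2:**
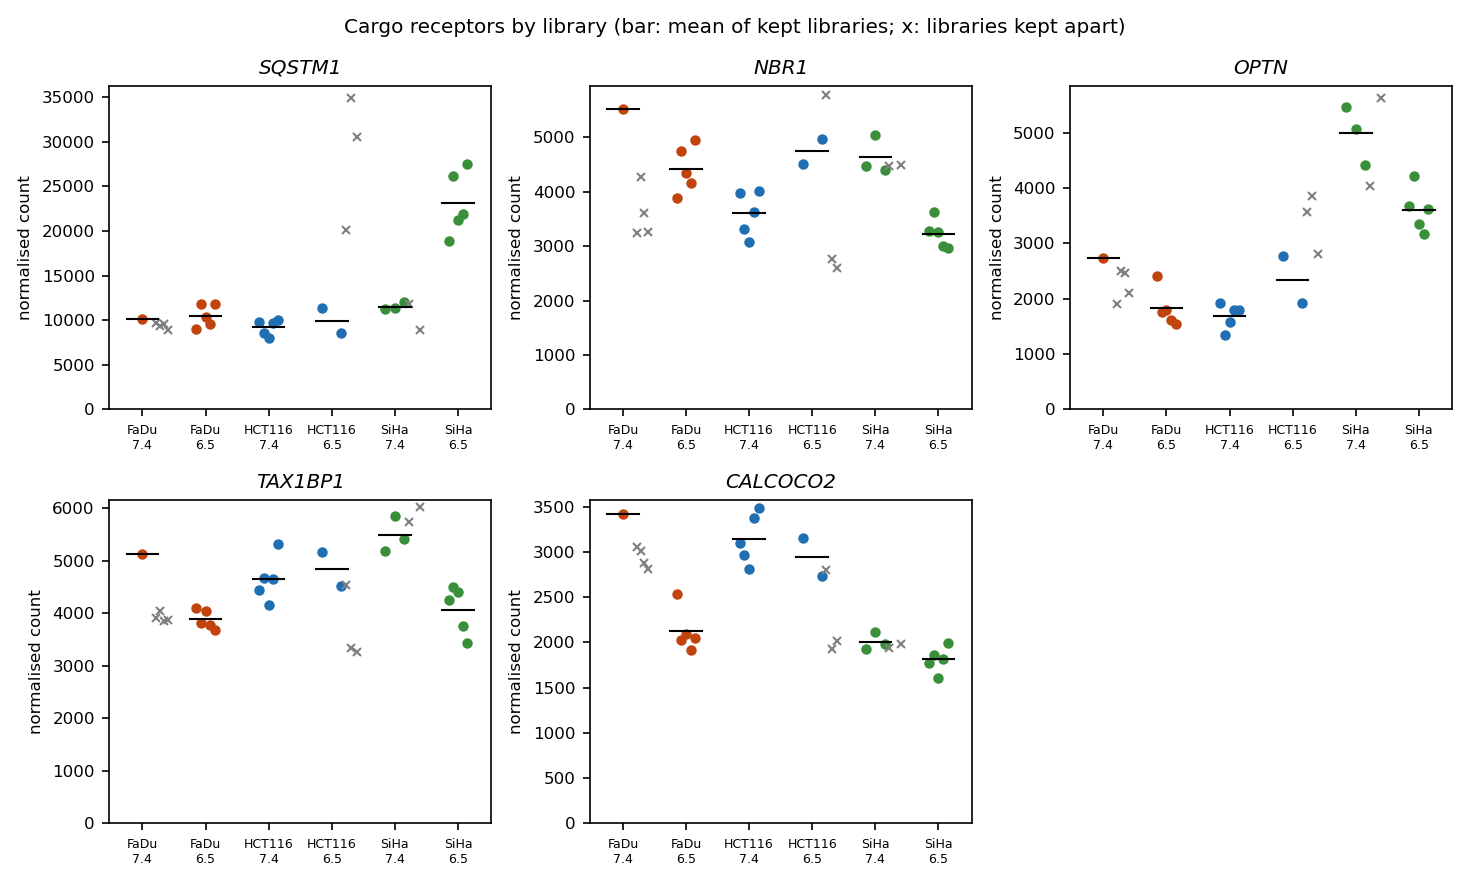
Normalised counts (y axis) of the 5 cargo receptors in each library, by line and pH (x axis). Coloured circles are the libraries compared, bars their means, and grey crosses the libraries kept apart. SQSTM1 lies between 18854 and 27499 in the 5 SiHa pH 6.5 libraries and between 11205 and 12030 in the 3 compared at pH 7.4, whereas NBR1, OPTN and TAX1BP1 are lower at pH 6.5 in SiHa.

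Whether the effect of pH differed between the lines was tested directly, as the line by pH interaction over the 21 libraries (limma F-test, Benjamini-Hochberg over 22127 genes, of which 33.1% passed). It passed for 13 of the 34 genes: all 5 cargo receptors, 3 of 8 conjugation genes (ATG12, ATG5, ATG4B), 3 of the 5 LC3 and GABARAP genes (MAP1LC3A, MAP1LC3B, GABARAPL2) and 2 of 6 membrane supply genes (ATG9A, WIPI1). None of the 10 initiation and PI3-kinase genes passed. The adjusted p-values were 5.82e-06 for ATG12, 0.000508 for NBR1, 0.00166 for SQSTM1 and 0.00454 for OPTN (limma F-test). FaDu enters with 1 library at pH 7.4. With HCT116 and SiHa libraries alone, an analysis chosen after seeing the data, 9 of 34 passed, where 25.1% of all genes did, with adjusted p = 3.32e-05 for ATG12, 0.000472 for NBR1, 0.00318 for SQSTM1 and 0.00406 for OPTN (limma), and MAP1LC3B no longer passed (0.244).

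ATG12 (ENSG00000145782) had the largest well-measured change of the 34 genes. It encodes the ubiquitin-like protein that ATG7 and ATG10 join to ATG5, and the joined pair with ATG16L1 directs LC3 attachment. In HCT116 it read 2440 and 2167 at pH 6.5 and 7788, 7202, 12166, 12360 and 12496 at pH 7.4. The acidic libraries were far below all 5 others, with a change of -2.14 ± 0.22 (log2, SE; limma adjusted p = 4.46e-05), and it passed in 20 of 20 alternatives. The pH 7.4 values formed a lower pair (replicates 1 and 3) and a higher trio (replicates 5 to 7). The 2 acidic libraries also carry the numbers 1 and 3, and against the same numbers the differences were -1.67 and -1.73. With all libraries as labelled, which adds 4715, 5467 and 4517 from the libraries holding SiHa reads, the change was -1.48 (limma adjusted p = 0.0103). Replicates 6 and 7 among those added held almost no HCT116-restricted genes, so that value mixes lines.

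In the other lines ATG12 did not pass the test. FaDu stood at 1602, 1517, 1574, 1433 and 1492 at pH 6.5 and 1688 at pH 7.4, and SiHa at 3187, 3989, 3202, 3150 and 4867 against 2756, 3721 and 2805 (differences of -0.15 and 0.24, limma adjusted p = 0.448 and 0.266). HCT116 at pH 7.4 therefore had the highest ATG12 of the 6 groups and at pH 6.5 lay between FaDu and SiHa.

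Of the 8 conjugation genes, 5 passed the test in no line. These were ATG3 and ATG10, which act like ubiquitin-conjugating enzymes, ATG7, the activating enzyme of both branches, ATG16L1, the scaffold, and ATG4D, a protease that acts on LC3 proteins. In SiHa, ATG5, the acceptor of ATG12, read 1322, 1325, 1240, 1174 and 1142 at pH 6.5 and 895, 1035 and 1063 at pH 7.4. The groups were apart, and the change was 0.32 ± 0.10 (log2, SE; limma adjusted p = 0.0324). ATG4B, the main protease that primes LC3, read 1797 to 2153 against 1463 to 1678 (0.30, limma adjusted p = 0.0387). Both SiHa calls were lost without any 1 of the 3 pH 7.4 libraries. The ATG5 call was also lost without pH 6.5 replicate 4, 5 or 6 and the ATG4B call without pH 6.5 replicate 4, 6 or 7, 8 and 9 of 21 alternatives in all. ATG5 was at -0.22 in FaDu and -0.18 in HCT116, neither past the test.

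**Figure D3:**
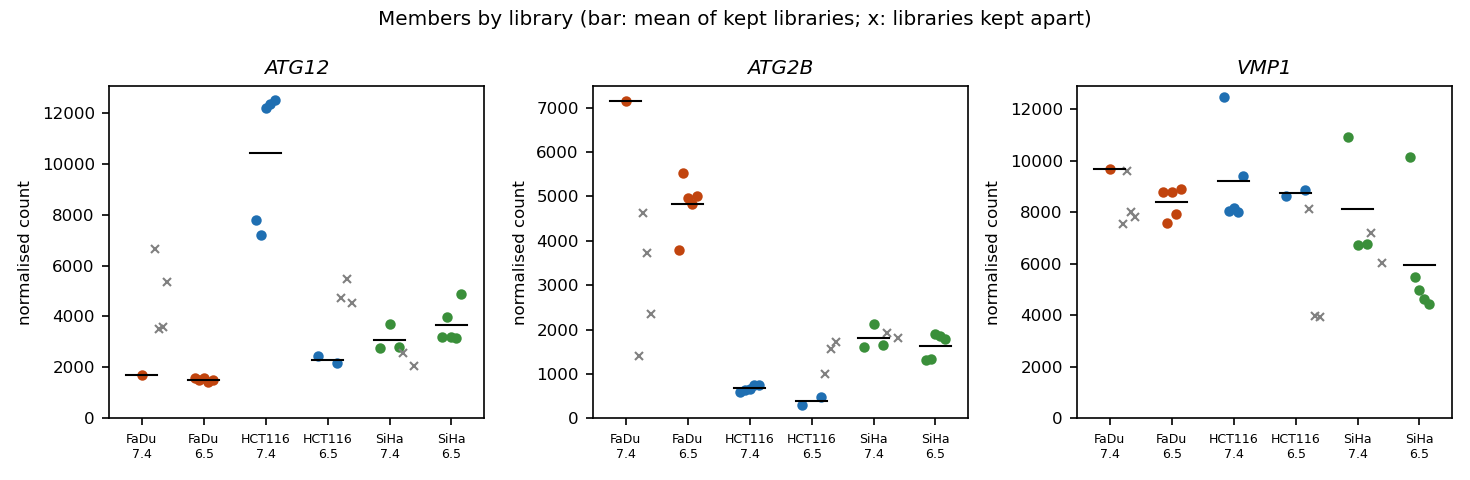
Normalised counts (y axis) of ATG12, ATG2B and VMP1 in each library, by line and pH (x axis). Coloured circles are the libraries compared, bars their means, and grey crosses the libraries kept apart. In HCT116 the 2 acidic ATG12 circles are at 2440 and 2167 and the 5 at pH 7.4 between 7202 and 12496, the ATG2B circles are lowest in HCT116, and the 3 highest VMP1 points (10150, 10910 and 12477) are replicate 1 libraries.

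Among the membrane supply genes, ATG2B (ENSG00000066739), one of the paired lipid transfer proteins, fell in HCT116. It read 298 and 481 at pH 6.5 and 594, 643, 650, 746 and 756 at pH 7.4, with no overlap (-0.83 ± 0.19 log2, SE; limma adjusted p = 0.0101). The call was lost without pH 6.5 replicate 1. With all libraries as labelled the value turned to 0.29, the added libraries reading 999, 1559 and 1727. That value mixes lines in the same way. Its partner ATG2A changed in no line. WIPI2, which binds the lipid made by the PI3-kinase and recruits ATG16L1, fell in SiHa (2633, 2393, 2002, 1869 and 1927 against 2653, 2646 and 2957), a change of -0.36 ± 0.12 (log2, SE; limma adjusted p = 0.0453) lost in 9 of 21 alternatives. ATG9A, the transmembrane protein of the seed vesicles, rose in SiHa (2154 to 2713 against 1823 to 1903, change 0.33, limma adjusted p = 0.0229), and the call was lost without any 1 of the pH 7.4 libraries.

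WIPI1, the paralogue of WIPI2, fell in FaDu, at 239, 180, 184, 181 and 203 against 386 in the single pH 7.4 library (-0.97 ± 0.21 log2, SE; limma adjusted p = 0.0416). VMP1, a membrane protein of the endoplasmic reticulum needed for autophagosome formation, is described although it passed in no line, a choice made after its values were seen. In SiHa it read 10150 (replicate 1), 5503, 4972, 4624 and 4423 at pH 6.5 and 10910 (replicate 1), 6712 and 6756 at pH 7.4. Replicate 1 was highest at both pHs in SiHa, and also in HCT116 at pH 7.4 (12477 against 7993 to 9410). Within each shared number the acidic SiHa library was lower, by 0.10, 0.29 and 0.44, and over all libraries the difference was -0.49 ± 0.26 (log2, SE; limma adjusted p = 0.168).

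Of the initiation complex ATG13 changed in FaDu, and no other call was made in the 3 lines. Its 5 genes are the kinases ULK1 and ULK2 and their partners ATG13, ATG101 and RB1CC1 (FIP200). None passed in HCT116 or SiHa, and the median of the 5 was 0.03 in HCT116 and 0.16 in SiHa. In FaDu ATG13 fell, from 3482 in the pH 7.4 library to 2626, 2574, 2531, 2581 and 2578 (-0.43 ± 0.10 log2, SE; limma adjusted p = 0.0488). That value turned to 0.028 with all libraries as labelled. In SiHa ATG13 was at -0.32 (limma adjusted p = 0.0581) and passed as lower with all libraries as labelled, and its difference between lines did not pass (0.101, limma F-test). ULK1 read 1671 to 2207 against 2662 in FaDu without passing the test (adjusted p = 0.143, limma).

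In the PI3-kinase complex, PIK3C3 is the lipid kinase (VPS34), PIK3R4 its regulatory subunit (VPS15), BECN1 the shared scaffold, and ATG14 and UVRAG the subunits that tell 2 forms of it apart. No member changed in FaDu or HCT116. In SiHa PIK3R4 read 1716, 2250, 1982, 2005 and 2018 at pH 6.5 and 1282, 1750 and 1504 at pH 7.4, a rise of 0.41 ± 0.12 (log2, SE; limma adjusted p = 0.0243) in spite of overlapping groups. BECN1 moved the other way, at 1155, 1424, 1206, 1210 and 1191 against 1489, 1696 and 1549, a change of -0.35 (log2; limma adjusted p = 0.0192) with the groups apart. The PIK3R4 call was lost without pH 6.5 replicate 6 or pH 7.4 replicate 1 or 5, and the BECN1 call without pH 7.4 replicate 4 or 5.

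The LC3 and GABARAP proteins are the ubiquitin-like tags of the autophagosome membrane that receptors bind. MAP1LC3A (ENSG00000101460) was scarce in FaDu and HCT116 and plentiful in SiHa. In FaDu and HCT116 it was tested only because its acidic group was high, which limits what its adjusted p-values there can show. In FaDu it read 27, 46, 69, 58 and 61 at pH 6.5 and 10 at pH 7.4, that is 26 to 79 reads against 9 reads, a rise of 2.22 ± 0.50 (log2, SE; limma adjusted p = 0.0437). In HCT116 it had 7 and 18 reads at pH 6.5 and 0, 4, 2, 2 and 2 reads at pH 7.4, near or under the 3-read limit. The fitted change of 2.35 ± 0.69 (log2, SE; limma adjusted p = 0.0314) moved from 2.67 to 1.39 as the pseudocount went from 0.5 to 5, so its size is uncertain. The HCT116 call was lost in 5 of 18 alternatives: with no filter on low values, with DESeq2, and without pH 6.5 replicate 1 or pH 7.4 replicate 5 or 7. In 2 further HCT116 settings MAP1LC3A fell below the filter and was not tested: a filter of a mean of at least 50, and without pH 6.5 replicate 3. The FaDu call was lost in 7 of 16. SiHa held 1276, 894, 810, 819 and 818 at pH 6.5 and 774, 815 and 760 at pH 7.4, with no call. The libraries labelled HCT116 pH 6.5 that carried SiHa reads held 390, 666 and 775.

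MAP1LC3B (ENSG00000140941), the form of LC3 most used as an autophagosome marker, fell in FaDu from 2495 to 1708, 1189, 1254, 1364 and 1224 (-0.90 ± 0.20 log2, SE; limma adjusted p = 0.0437). The groups were apart, with the replicate 1 library closest to the pH 7.4 value. In HCT116 and SiHa it did not pass (0.17 and -0.15). MAP1LC3B2 is a near-identical copy, and how reads that match both were counted is not given, so both values are uncertain; it had 0 reads in the 5 FaDu pH 6.5 libraries and 1 read in the pH 7.4 library compared. GABARAP rose in SiHa, from 303 to 323 up to 370 to 395, with an adjusted p of 0.0489 (limma). That call was lost in 17 of 21 alternatives, and with the set-apart libraries (406 and 477) the value was 0.10. GABARAPL1 and GABARAPL2 changed in no line.

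**Figure D4:**
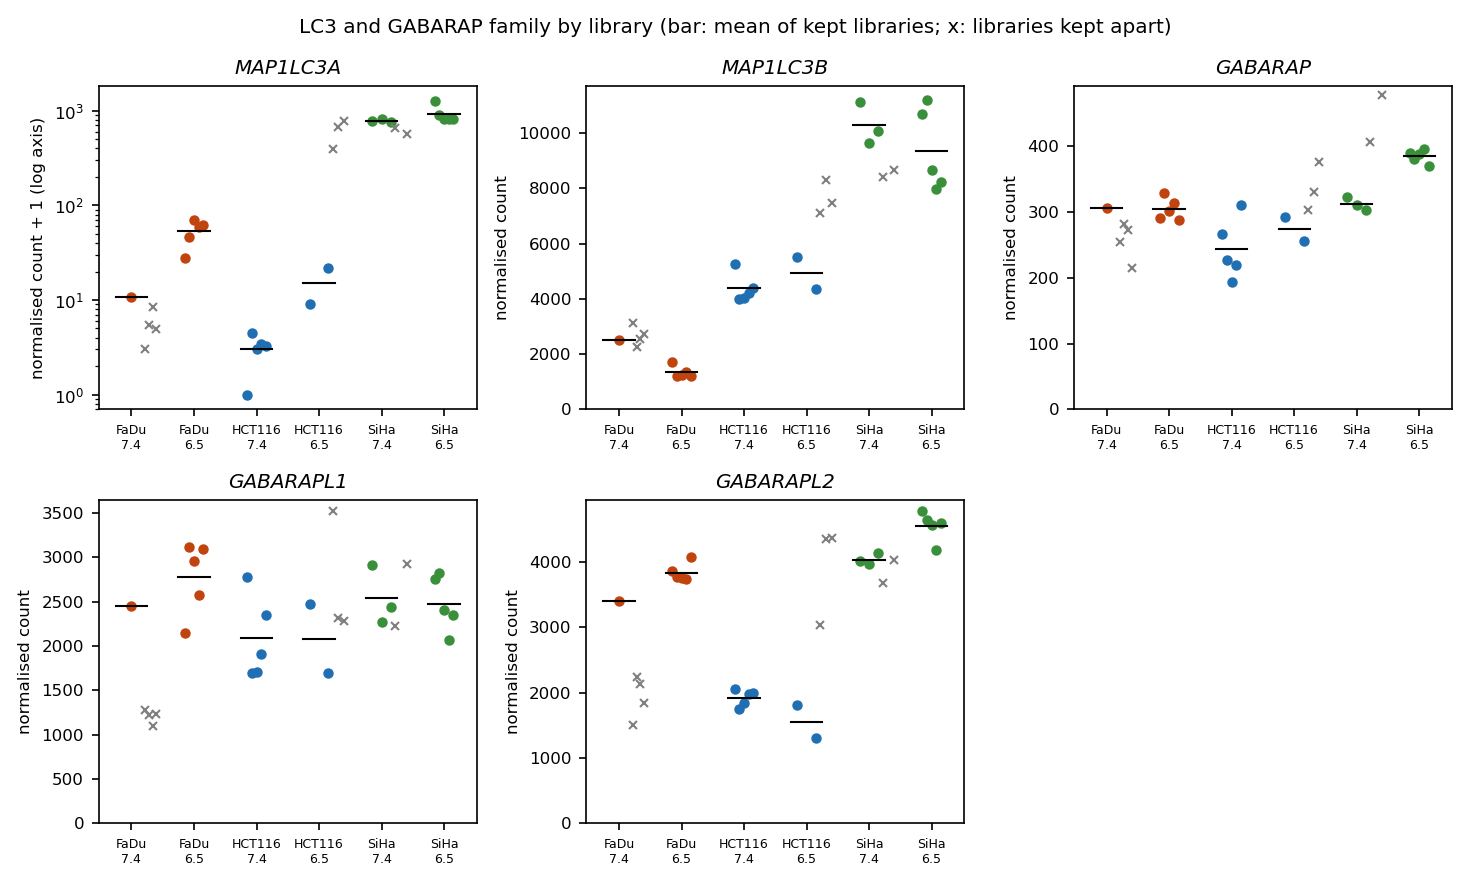
Normalised counts of the 5 LC3 and GABARAP genes in each library, by line and pH (x axis). The y axis is linear except for MAP1LC3A, where it is the normalised count + 1 on a log axis. Coloured circles are the libraries compared, bars their means, and grey crosses the libraries kept apart. The MAP1LC3A circles lie between 760 and 1276 in SiHa, 9.89 and 69 in FaDu and 0 and 21 in HCT116, and MAP1LC3B is highest in SiHa and lowest in FaDu.

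The 5 FaDu changes rest on a single pH 7.4 library, replicate 1, so their spread is taken from pH 6.5 alone. The 5 calls were lost after leaving out any 1 of pH 6.5 replicates 2, 3, 4 or 5, where fewer of all genes also passed. After leaving out replicate 1, more members and more of all genes passed. With 1 library at pH 7.4, a difference of pH and a difference of that library cannot be told apart. Against the pH 6.5 library of the same number the values had the same sign for all 5 and were smaller: 1.37 for MAP1LC3A, -0.68 for WIPI1, -0.55 for MAP1LC3B, -0.43 for CALCOCO2 and -0.41 for ATG13. With all libraries as labelled, including those with HCT116 reads, 19 members passed, 12 upward and 7 downward, where 46.3% of all genes did.

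The levels of the machinery were also compared between lines at 1 pH. At pH 6.5, 22 of 34 members differed between FaDu and SiHa (13 higher in FaDu, 9 lower), where 74.1% of all genes did (39.4% higher, 34.7% lower). Between HCT116 and FaDu at pH 6.5 it was 21 of 34 (9 higher in HCT116, 12 lower), against 63.9% of all genes (30.9% higher, 33% lower), and between HCT116 and SiHa at pH 7.4 it was 24 of 34 (12 each way), against 73.4% (37.3% higher, 36.1% lower). The difference between the share of members and that of all genes was not tested. Scaling the libraries to equal totals moved the all-gene median of HCT116 against SiHa from 0.01 to -0.18, with 6432 genes higher and 8514 lower in place of 7526 and 7288, and the members from 12 and 12 to 11 higher and 17 lower, against 73.8% of all genes. The FaDu against SiHa members then split 11 and 11.

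MAP1LC3A showed the widest range: log2 differences of -4.16 ± 0.23 for FaDu against SiHa at pH 6.5 and -8.16 ± 0.43 for HCT116 against SiHa at pH 7.4 (SE; limma adjusted p = 4.36e-09 and 1.83e-08), the latter against HCT116 libraries near the read limit. MAP1LC3B was also lower in FaDu than in SiHa (-2.79) and higher in HCT116 than in FaDu (1.87). ATG2B was highest in FaDu, with a log2 difference of 1.56 to SiHa and of -3.66 for HCT116 against FaDu, and -1.40 for HCT116 against SiHa at pH 7.4. RB1CC1 and PIK3C3 were higher in FaDu than in SiHa (1.43 and 1.42), and PIK3C3 was higher in HCT116 than in SiHa (1.502). At pH 7.4 OPTN was lower (-1.57) and ATG12 higher (1.72) in HCT116 than in SiHa, and at pH 6.5 WIPI1 was higher (1.79) and GABARAPL2 lower (-1.32) in HCT116 than in FaDu. Each of these differences passed the threshold (limma, largest adjusted p of those named 2.59e-05). With all libraries as labelled, the HCT116 against FaDu value of MAP1LC3A turned from -1.87 to 1.37.

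Per kilobase of exon, SQSTM1 was the most abundant of the 5 receptors in all 6 groups, at 3021 ± 469 normalised counts per kb in SiHa at pH 6.5 (SD, n = 5) and 1505 ± 58.6 at pH 7.4 (SD, n = 3), and at 1206 to 1372 in the 4 groups of the other lines. In SiHa at pH 6.5 the LC3 and GABARAP family was ordered MAP1LC3B (1761 ± 280 per kb), GABARAPL2 (1501 ± 73.6), GABARAPL1 (607 ± 75.8), MAP1LC3A (524 ± 114) and GABARAP (170 ± 4.37, SD, n = 5). The intervals of mean ± SD overlapped for MAP1LC3B and GABARAPL2 and for GABARAPL1 and MAP1LC3A. In FaDu at pH 6.5 GABARAPL2 led (1265 ± 46.6 per kb), ahead of GABARAPL1 (680 ± 101), MAP1LC3B (254 ± 39.9), GABARAP (134 ± 7.39) and MAP1LC3A (29.6 ± 9.29, SD, n = 5).

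Other genes of the pathway, 93 in 5 lists, were counted in the same fits: 39 passed in SiHa, 13 in HCT116 and 9 in FaDu, beside 31.2%, 20.2% and 7.36% of all genes. Those shares are also the ones to set beside the counts of each list, which were not tested. Not every listed gene passed the filter on low values. Of the 19 other core genes 17 were tested in SiHa, 18 in HCT116 and 16 in FaDu. In FaDu 30 of the 31 mTORC1 and AMPK genes were tested. In SiHa 14 of the 31 genes of the mTORC1 and AMPK list changed (8 up, 6 down). DDIT4, an inhibitor of mTORC1 induced by stress, fell by 1.78, the sestrin SESN3 rose by 1.08 and FLCN, which acts on the Rag GTPases, rose by 0.88 (log2). The sestrins SESN1 and SESN2 were among the genes that fell. Among 16 genes of fusion with the lysosome 3 rose and 4 fell, with the fusion proteins VAMP8 and STX17 at -1.14 and -0.57 and PLEKHM1 at -0.52. Of 15 organelle receptors 2 rose and 4 fell, with the mitochondrial receptor BNIP3 at -0.69, the endoplasmic reticulum receptor RETREG1 at -0.52 and TOLLIP at -0.41. Of 19 other core genes 2 rose and 4 fell, led by ATG16L2 (1.223), TP53INP2 (-0.72) and TP53INP1 (-0.66). Of 12 transcription factors 5 rose and 1 fell: DDIT3, a factor of the integrated stress response, rose by 1.13, FOXO1 rose by 0.96, and NFE2L2, which encodes NRF2, fell by 0.56.

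In HCT116 the mTORC1 and AMPK list had 7 genes up and none down of 31, led by SESN3 (1.89), the AMPK subunit PRKAG1 (0.92) and LAMTOR4 of the Ragulator complex (0.87). TECPR1 rose by 0.55, the only call of the fusion list, and no organelle receptor passed. ULK3 rose by 0.62. MAP1LC3B2, also among the genes called, had 14 and 35 reads at pH 6.5 against 1 to 4 at pH 7.4, near the read limit there. It passed the filter on low values, and so was tested and counted, only because the acidic group was high. Of the transcription factors MITF (-1.90) and FOXO3 (-0.98) fell and DDIT3 (1.37) rose. In FaDu, with 1 library at pH 7.4, DDIT4 fell by 2.16 and SESN2 by 1.54 while RRAGD rose by 1.70, with 2 genes up and 3 down in the mTORC1 and AMPK list. ZFYVE1 (-0.89) was the only other core gene to pass. The stress factors DDIT3 (-2.69) and ATF4 (-1.14) and NFE2L2 (-1.02) fell, and no gene of the fusion or organelle receptor lists passed. Median changes of the 5 lists lay between -0.32 and 0.13 in the 3 lines, beside -0.01 over all genes.

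The 250 bases before the transcript start were searched on both strands for 3 motifs, since TFEB, NRF2 and ATF4 are known to act on autophagy genes. RefSeq promoters (GRCh38.p14) matched 30 of the 34 genes; RB1CC1, ATG4D, UVRAG and MAP1LC3A had no entry. The E-box core CACGTG was in 2 of 30 (ATG14 and ATG3), a share of 6.67% against 6.34% of 35116 promoters in the table. The antioxidant element core TGACNNNGC was in 3 of 30 (ATG101, CALCOCO2 and MAP1LC3B), or 10% against 10.9%. The amino acid response element core TGATGNAA was in 0 of 30, against 3.14%. The shares were close to those of all promoters or lower. Members were counted by gene and the whole table by promoter entry, so these are not strictly the same measure. SQSTM1, NBR1, OPTN and TAX1BP1 held none of the 3 in this window. Printed below are the 250 bases, 5′ to 3′ on the gene's strand, of MAP1LC3B and CALCOCO2, which fell in FaDu and hold the antioxidant core (in capitals, as its complement in CALCOCO2), and of ATG12, which holds none. They were chosen after the search was seen, and a match is a description, not evidence of binding. The windows are chr16:87392086-87392335 (plus strand), chr17:48830785-48831034 (plus strand) and chr5:115841566-115841815 (minus strand).
MAP1LC3B: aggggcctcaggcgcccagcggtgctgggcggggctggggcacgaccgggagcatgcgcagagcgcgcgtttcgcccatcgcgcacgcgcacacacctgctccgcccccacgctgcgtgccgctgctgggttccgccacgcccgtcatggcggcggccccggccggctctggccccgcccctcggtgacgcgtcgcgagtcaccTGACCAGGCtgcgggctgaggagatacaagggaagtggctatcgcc
CALCOCO2: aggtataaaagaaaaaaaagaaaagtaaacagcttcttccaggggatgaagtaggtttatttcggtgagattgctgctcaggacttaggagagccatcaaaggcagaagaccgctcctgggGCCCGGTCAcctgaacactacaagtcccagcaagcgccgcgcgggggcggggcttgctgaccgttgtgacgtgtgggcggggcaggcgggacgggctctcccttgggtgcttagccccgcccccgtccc
ATG12: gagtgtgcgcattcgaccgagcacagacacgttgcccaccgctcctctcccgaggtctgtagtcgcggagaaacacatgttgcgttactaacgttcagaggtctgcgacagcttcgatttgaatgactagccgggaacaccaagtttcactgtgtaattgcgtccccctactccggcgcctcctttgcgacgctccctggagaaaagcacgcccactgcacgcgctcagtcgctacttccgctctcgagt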

How the data were processed

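The authors deposited 1 table of normalised counts (38122 Ensembl genes, 30 libraries). Per the submitters' processing notes, reads were handled with bcl2fastq 2.20, FastQC, Trimmomatic 0.38, STAR 2.6.1d and DESeq2 1.22.2 on GRCh37; counter, strandedness and gene annotation: not given in the sources used here, so overlapping or antisense transcripts cannot be told apart. The deposited signal is read counts divided by size factors: in 29 of 30 columns 100% of values were whole multiples of 1 read (tolerance 0.01), which gave reads per library. In the remaining HCT116 pH 7.4 column (replicate 5) the values were also 100% whole multiples, of a step of 1.007. That step lies too close to 1 for the unit check to accept them as reads. The column was left out of the count tests only, and reads quoted for it use that step.

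Symbols came from a reference table of Ensembl IDs (35466 IDs matched). Members and gene lists were chosen with earlier results of these data known. Changes were tested with limma 3.58.1 (trend) on log2(normalised count + 1), per line, for genes whose higher group averaged 10 or more, 2-sided, Benjamini-Hochberg adjusted over all genes tested. An F-test over 6 group means gave the interaction. The 9 libraries with genes of another line or high fibroblast markers were kept apart as the choice of members prescribed, and put back as an alternative. Alternatives were other pseudocounts, filters and scalings, edgeR 4.0.16 (quasi-likelihood) and DESeq2 1.42.0 on recovered reads, 1 fit over all lines, a replicate block, each library left out, and 2 chosen after seeing the data. The pipeline was tested on simulated data. Named were, per line, up to 6 called members with the largest change, members called in several lines, the 6 lowest interaction p-values, 5 per comparison of lines and 3 per pathway list; other members are given by range. Exon lengths (union of exons) came from GENCODE 29. Of 94 pathway genes 93 were matched. The tools were Python 3.11.15 and R 4.3.3.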

Additional observations from a re-analysis of the deposited data

Results flagged for a closer look

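In the groups of 5 libraries (FaDu pH 6.5, HCT116 pH 7.4 and SiHa pH 6.5), 16 values of the 34 genes stood apart from the rest of their group by Dixon's criterion. In all, 102 sets of 1 gene in 1 group were tested. Chance gives about 1 in 20 for independent sets, but these share the same libraries, so the count was not tested against it. Of these, 11 were replicate 1 libraries. In FaDu at pH 6.5 replicate 1 was low for RB1CC1 (2631 against 3519 to 3690) and high for ATG9A (2577), ATG4D (777) and OPTN (2420). In HCT116 at pH 7.4 replicate 1 was high for ULK1 (2419), ATG13 (3212), ATG2A (1858) and WIPI2 (5188), and replicate 3 was low for ATG101 (1330). In SiHa at pH 6.5 replicate 1 was high for ULK1 (2198), VMP1 (10150) and MAP1LC3A (1276), replicate 4 high for BECN1 (1424) and WIPI1 (491) and low for ATG14 (1117), and replicate 7 low for ATG10 (303). The labels give no batch for the number 1, and its part in the results was not tested beyond the analyses without these libraries.

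The pH effect differed between the lines for 13 genes, by the limma F-test of the interaction. The adjusted p-values were 5.82e-06 (ATG12), 0.000508 (NBR1), 0.00166 (SQSTM1), 0.00454 (OPTN), 0.00861 (ATG5), 0.00888 (MAP1LC3B), 0.0111 (ATG4B), 0.0137 (ATG9A), 0.0141 (MAP1LC3A), 0.0167 (GABARAPL2), 0.0215 (WIPI1), 0.0283 (TAX1BP1) and 0.0343 (CALCOCO2). SQSTM1 rose in SiHa alone of the 3 lines, and its difference between lines passed the test, whereas NBR1 and OPTN were lower at pH 6.5 in SiHa and had positive differences in HCT116 (0.40 and 0.46) that did not pass there.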

How the results depend on the processing

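Of 704 values of single genes under alternatives, 609 kept their call, 90 lost it and 5 reversed: ATG13 in FaDu (0.028 with all libraries as labelled, with and without the replicate block), ATG2B in HCT116 (0.29, likewise) and MAP1LC3A in HCT116 against FaDu (1.37 as labelled). Members called in FaDu numbered 19 as labelled, 18 with the replicate block as labelled, 3 with equal library totals, 1 with no filter on low values and 0 to 16 with 1 library left out, against 5. In HCT116 they numbered 7 in 1 fit over 21 libraries, 5 with equal totals, 5 without the libraries numbered 1 and 2 to 6 with 1 library left out, against 3. In SiHa they numbered 7 with no filter and 4 to 13 with 1 library left out (4 without pH 7.4 replicate 5, 5 without replicate 1 or 4), against 11, and 9 (2 up, 7 down, with ATG5, ATG4B, GABARAP and ATG9A lost) without those numbered 1, an analysis chosen after seeing the data. HCT116 against FaDu gave 13 as labelled and 13 to 25 with 1 library left out. The other comparisons of lines gave 21 to 23 and 23 to 28. Numbers of all genes called moved too, though little in HCT116 with equal totals (3836 of 18920). In FaDu they were 9115 of 19690 as labelled, and 8851 of 19690 with the replicate block. HCT116 had 5150 of 18833 without pH 7.4 replicate 1, against 3819 of 18885. SiHa had 5243 of 35093 with no filter and 3551 of 18580 without pH 7.4 replicate 5, against 5787 of 18555. HCT116 against FaDu had 8954 of 20239 as labelled, against 12886 of 20171.

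Pathway genes called in FaDu numbered 20 in 1 fit, 19 with DESeq2, 39 as labelled, 43 with the replicate block as labelled and 3 to 39 with 1 library left out, against 9. In HCT116 they numbered 4 with the replicate block as labelled and 7 to 23 with 1 left out, against 13, and in SiHa 20 to 45 against 39. The numbers of all genes called under these settings also moved, and the cause of the shifts was not tested.

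Same-numbered libraries correlated at 0.316, 0.0478 and 0.0790 in SiHa and at 0.173 and 0.0553 in HCT116 (deviations from group means). Libraries of different number were not correlated for comparison, so these values cannot decide whether the numbers mark pairs. The main tests did not pair them. With the replicate block 8 members were called in SiHa (WIPI2, ATG4B and GABARAP lost), where 5237 of 18555 genes were. In HCT116 3 members and 2927 of 18885 genes were called with the block. FaDu shares 1 number only. edgeR and DESeq2 on recovered reads called 1368 and 2659 of all genes in FaDu, 2954 and 3364 in HCT116 (1 fewer library) and 5877 and 6418 in SiHa. Depth limits MAP1LC3A in HCT116.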
